A study of Mus musculus with 10 samples.

Results

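The 9 genes described here carry out antigen presentation by major histocompatibility complex (MHC) class II: H2-Aa, H2-Ab1 and H2-Eb1, which encode chains of the surface molecules, Cd74, H2-DMa, H2-DMb1, H2-DMb2 and Ctss, which load them with peptide, and Ciita, which switches the set on. They were found by gene symbol and were chosen by the measured contrast itself, because Cd74 and H2-Aa differed strongly between the sorted populations, so their differences between the populations are given as a description and without a p-value. All 9 are among the 54532 genes of the count table and among the 15703 that passed the filter of more than 0.5 cpm (reads of a gene scaled to a common library total) in at least 3 libraries. RNA was sequenced from small intestinal cells of 5 litter-matched Gucy2c-GFP mice, 10 weeks old and of the CD1/ICR stock. These mice carry a transgene in which the promoter of Gucy2c, an intestinal guanylyl cyclase receptor, drives GFP. Live single cells of each mouse were sorted by GFP brightness into GUCY2C-hi and GUCY2C-med cells, 20000 cells per library, which gave 5 libraries per group. The GUCY2C-hi cells are rare, whereas the GUCY2C-med cells stand for the bulk of the epithelium, and both carry the transgene. No antibody against a leukocyte antigen is named for the sort. The mice are called by the numbers in the labels, 2, 7, 12, 14 and 15, and values are listed in that order throughout.

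MHC class II molecules are pairs of an alpha and a beta chain that show peptides from the endosome to CD4+ T cells. In the mouse, H2-Aa and H2-Ab1 form the A molecule, and H2-Eb1 pairs with the product of H2-Ea to form the E molecule, which several inbred strains lack. New pairs travel with the invariant chain encoded by Cd74, cathepsin S (Ctss) trims that chain, and the H2-DM dimer exchanges its last fragment for a peptide. The genes are transcribed when CIITA docks on a complex of RFX, CREB and NF-Y factors at the X and Y boxes of their promoters. Interferon gamma induces Ciita. Dendritic cells, macrophages and B cells carry class II molecules throughout, and enterocytes and crypt cells of the small intestine carry them as well.

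The promoters of the class II genes are shown because the CIITA complex reads them. RefSeq sequences (GRCm38.p6, 250 bases before to 50 bases after each start site) were given for 6 of the 9 genes, and for Cd74, Ciita and H2-Ab1 there was no entry. Capitals mark the Y box core TGATTGG and the X box core AACNGATG in the class II genes, each searched on both strands, and in Ctss the core of an interferon response element, AAANNGAAA. The stretches lie at chr17:34305758-34305832 (plus strand) for H2-Eb1, chr17:34287847-34287893 (minus strand) for H2-Aa, chr17:34153079-34153154 (plus strand) for H2-DMb1, chr17:34145108-34145183 (plus strand) for H2-DMb2 and chr3:95526746-95526794 (plus strand) for Ctss.
H2-Eb1: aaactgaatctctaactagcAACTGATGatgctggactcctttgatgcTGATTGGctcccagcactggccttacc
H2-Aa: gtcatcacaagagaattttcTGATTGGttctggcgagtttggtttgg
H2-DMb1: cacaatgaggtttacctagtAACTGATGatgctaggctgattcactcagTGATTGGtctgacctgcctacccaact
H2-DMb2: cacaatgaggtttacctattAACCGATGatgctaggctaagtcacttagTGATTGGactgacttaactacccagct
Ctss: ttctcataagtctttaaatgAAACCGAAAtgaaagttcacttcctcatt

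In H2-Eb1, H2-DMb1 and H2-DMb2 an X box core was followed by a Y box core on the same strand, with 20, 21 and 21 bases between them. H2-Aa held the Y box core, 50 to 44 bases before its start site, and these letters of the X box were not in its window. Neither box core was in the 2 windows of H2-DMa, which lie upstream of the gene as the count table places it, whereas the interferon element core was in 1 of them, on the opposite strand and 25 to 17 bases before its start site. The Ctss window held an X box core 207 to 200 bases before the start site, no Y box core, and the interferon element core a second time, on the opposite strand after the start site. The Y box core was in 7.82% of all 32851 promoter windows, the X box core in 2.32% and the interferon element core in 10.6%, whereas both boxes on the same strand were in 25 windows (0.0761%). The stretches of H2-DMb1 and H2-DMb2 share 66 of 76 bases. These genes are near-identical copies, so the division of reads between them is uncertain.

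Cd74, the invariant chain, was the most abundant of the 9 transcripts. Its level was 143, 30.2, 800, 267 and 462 cpm in the GUCY2C-hi libraries and 2279, 593, 1837, 4496 and 1687 cpm in the GUCY2C-med libraries. All levels in cpm are normalised by the trimmed mean of M-values (TMM). The GUCY2C-hi library was the lower in each of the 5 mice, yet the groups overlapped, because the GUCY2C-hi library of mouse 12 lay above the GUCY2C-med library of mouse 7. The means were 341 ± 303 cpm and 2178 ± 1437 cpm (SD, n = 5 each), and the log2 fold change fitted by edgeR's quasi-likelihood model was -2.68 (SE 0.76). Log2 fold changes are GUCY2C-hi minus GUCY2C-med throughout. In bulk libraries, fewer cells with a transcript and less of it per cell cannot be told apart.

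H2-Aa and H2-Ab1, the chains of the A molecule, showed the same division of the mice. H2-Aa was at 3.83, 1.51, 82.3, 8.79 and 97.0 cpm in GUCY2C-hi cells and at 62.9, 25.0, 201, 201 and 186 cpm in GUCY2C-med cells, with a log2 fold change of -1.81 (SE 1.01). H2-Ab1 was at 27.6, 3.01, 79.3, 16.3 and 105 cpm against 173, 59.7, 180, 290 and 167 cpm, with a log2 fold change of -1.91 (SE 0.74). For both genes the GUCY2C-hi libraries of mice 12 and 15 exceeded the GUCY2C-med library of mouse 7, so the groups overlapped, although the GUCY2C-hi library was the lower in every mouse. Without these GUCY2C-hi libraries, which were the highest of their group for both genes, the log2 fold changes were -4.85 and -3.47. Leaving out the highest libraries of the lower group can only widen the difference, so nothing is read from these values.

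H2-Eb1, the beta chain of the E molecule, varied most among the GUCY2C-med libraries. Its level was 4.24, 7.30, 20.8, 36.8 and 20.2 cpm in GUCY2C-hi cells and 16.2, 105, 53.2, 480 and 41.3 cpm in GUCY2C-med cells. The highest GUCY2C-med library was 29.7 times the lowest, and mouse 14 stood highest in both groups. The log2 fold change was -2.96 (SE 0.89), and the groups overlapped.

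The H2-DM genes encode the peptide exchange factor, H2-DMa its alpha chain and H2-DMb1 and H2-DMb2 its beta chains. H2-DMa was at 12.4, 13.4, 54.8, 23.1 and 65.7 cpm in GUCY2C-hi cells and at 103, 71.8, 120, 222 and 106 cpm in GUCY2C-med cells, and the groups did not overlap (log2 fold change -1.88, SE 0.50). H2-DMb1 was at 5.31, 2.41, 19.0, 16.0 and 14 cpm against 36.9, 26.7, 41.8, 87.0 and 33.0 cpm, again without overlap (log2 fold change -1.99, SE 0.52). H2-DMb2 was the exception among the 9 genes. It was at 5.31, 2.35, 7.19, 10.7 and 8.50 cpm against 25.2, 21.2, 10.1, 37.8 and 5.56 cpm, so that in mouse 15 the GUCY2C-hi library was the higher (log2 fold change -1.55, SE 0.51).

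Ctss and Ciita completed the set. Ctss was at 24.7, 13.2, 85.6, 24.4 and 117 cpm in GUCY2C-hi cells and at 179, 183, 154, 142 and 201 cpm in GUCY2C-med cells, with no overlap and a log2 fold change of -1.70 (SE 0.52). Its GUCY2C-med libraries were the steadiest of the 9 genes, the highest being 1.42 times the lowest, against 3.09 to 29.7 times for the other genes. Ciita, the activator, was scarce: 0.740, 0.301, 2.27, 1.08 and 1.13 cpm in GUCY2C-hi cells, from 5 to 30 reads per library, and 9.36, 2.81, 5.47, 8.94 and 3.08 cpm in GUCY2C-med cells, from 35 to 119 reads. The groups did not overlap (log2 fold change -2.42, SE 0.54).

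**Figure D1:**
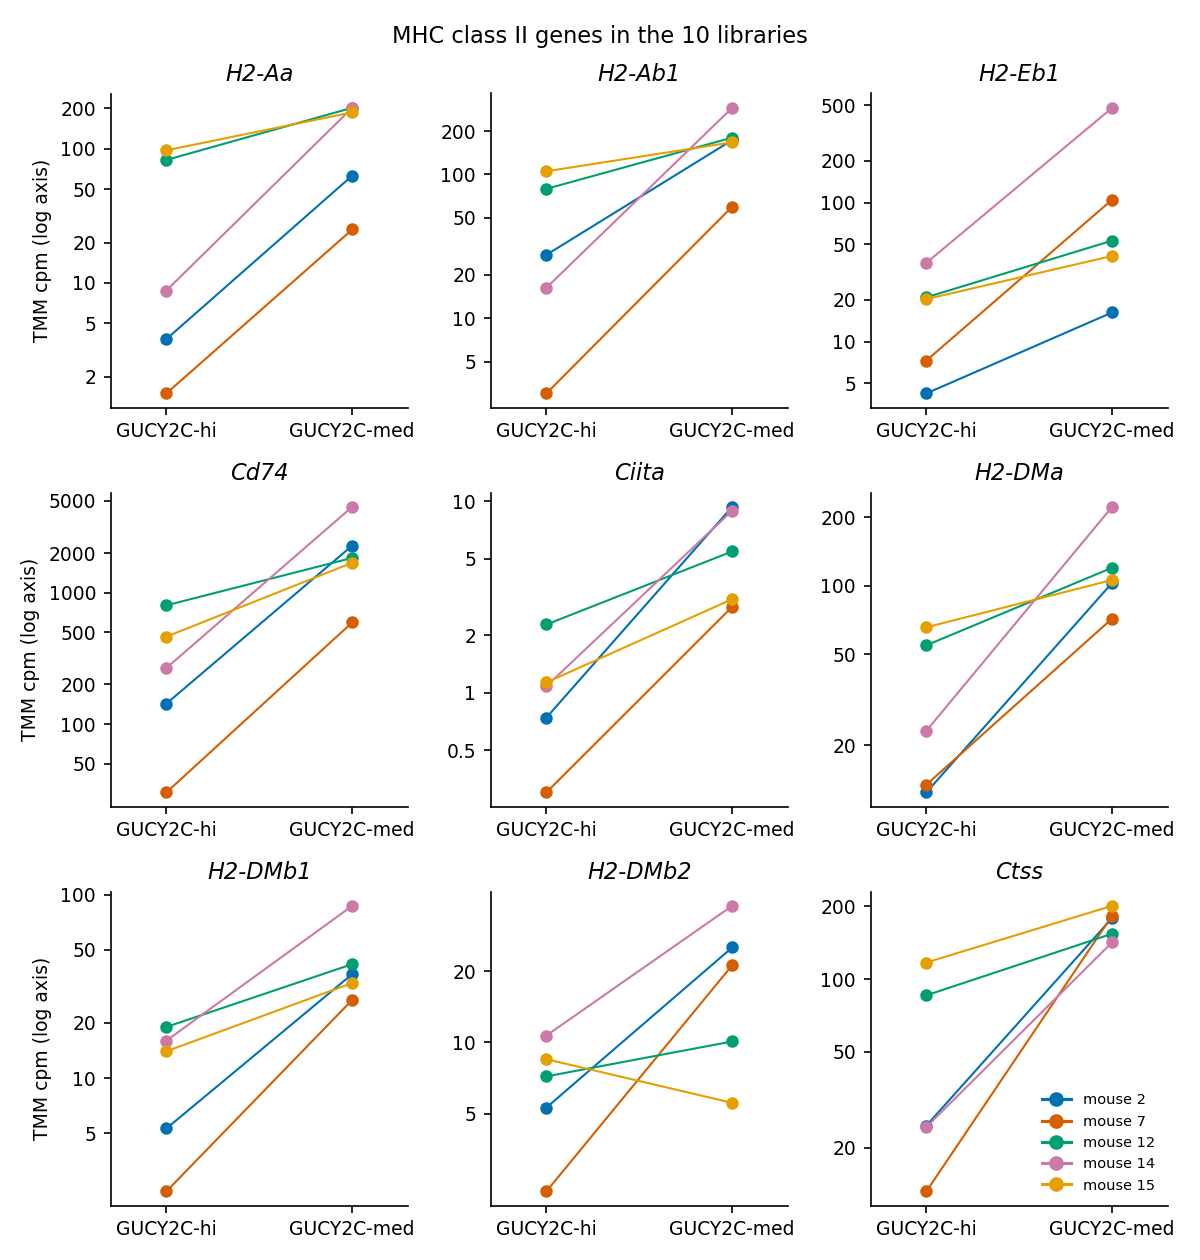
Level of each of the 9 genes (TMM cpm, log axes that differ between panels) in GUCY2C-hi and GUCY2C-med libraries, with a line joining the libraries of each mouse. The lines rise toward GUCY2C-med in 44 of 45 pairs, H2-DMb2 in mouse 15 being the exception, and the lines of mice 12 and 15 are the flattest for most genes.

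Over all 9 genes the GUCY2C-hi library was the lower in 44 of 45 gene and mouse pairs, and 8 genes were lower in all 5 mice. In 4 of 9 genes (Ciita, Ctss, H2-DMa and H2-DMb1) each GUCY2C-hi library lay below each GUCY2C-med library, which was so for 13.2% of all genes tested. The median log2 fold change was -1.91, and over all genes tested it was 0.09. At the study's threshold of 0.01 for p adjusted by Benjamini and Hochberg's method, Ciita alone was called lower, where 8.79% of all genes were called lower and 13.9% higher. Since the genes were selected on this contrast, nothing is read from these counts. With the mouse as a replicate block the calls numbered 3 (Cd74, Ciita and H2-DMb1) in edgeR and 7 in limma-voom. Ciita itself was not called without the GUCY2C-hi library of mouse 2, 7 or 14 or the GUCY2C-med library of mouse 2, 12 or 14, and 3 genes were called without the GUCY2C-hi library of mouse 12 or of mouse 15.

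The share of the GUCY2C-med level that was left in GUCY2C-hi cells divided the mice. In mice 2, 7 and 14 the median over the 9 genes was 13.8%, 7.21% and 10.4%, with single genes from 4.37% (H2-Aa in mouse 14) to 28.3% (H2-DMb2 in mouse 14). In mice 12 and 15 the medians were 44.1% and 52.3%, and apart from H2-DMb2 in mouse 15, at 153%, single genes lay between 27.4% (Cd74 in mouse 15) and 71.3% (H2-DMb2 in mouse 12). Not 1 of the 9 genes had a lower share in mouse 12 or 15 than in mouse 2, 7 or 14.

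The share of the enterocyte genes left in GUCY2C-hi cells moved with that of the class II genes from mouse to mouse. The summed level of 22 enterocyte genes in GUCY2C-hi cells was 5.86%, 6.04% and 6.80% of the GUCY2C-med level in mice 2, 7 and 14, and 45.5% and 42.7% in mice 12 and 15. The summed level of the 9 class II genes was 7.88%, 6.77% and 6.78% in mice 2, 7 and 14, and 44.2% and 36.7% in mice 12 and 15. Cd74 was the largest part of the class II sum in every library. Among the GUCY2C-med libraries the class II sum ran from 1088 cpm (mouse 7) to 5965 cpm (mouse 14). The enterocyte sum there ran from 57994 cpm (mouse 7) to 78278 cpm (mouse 2). All 22 enterocyte genes had a log2 fold change below 0 (median -2.23), 19 of them without overlap between the groups (13.2% over all genes). Of the 22, 6 were called lower (8.79% over all genes), whereas 19 of 21 enteroendocrine genes were called higher (13.9% over all genes). Genes of T cells and innate lymphocytes were also highest in the same GUCY2C-hi libraries, with summed levels of 336 and 294 cpm in mice 12 and 15 against 54.6 to 95.4 cpm in the other three. The part of enterocytes or lymphocytes in the class II levels was not tested. Without the GUCY2C-hi libraries of mice 12 and 15, 7 of the 9 genes were called lower (all but H2-DMb2 and H2-Eb1). These libraries were left out for their high shares, and over all genes the calls lower then rose from 1381 to 2186. Nothing is read from this count.

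**Figure D2:**
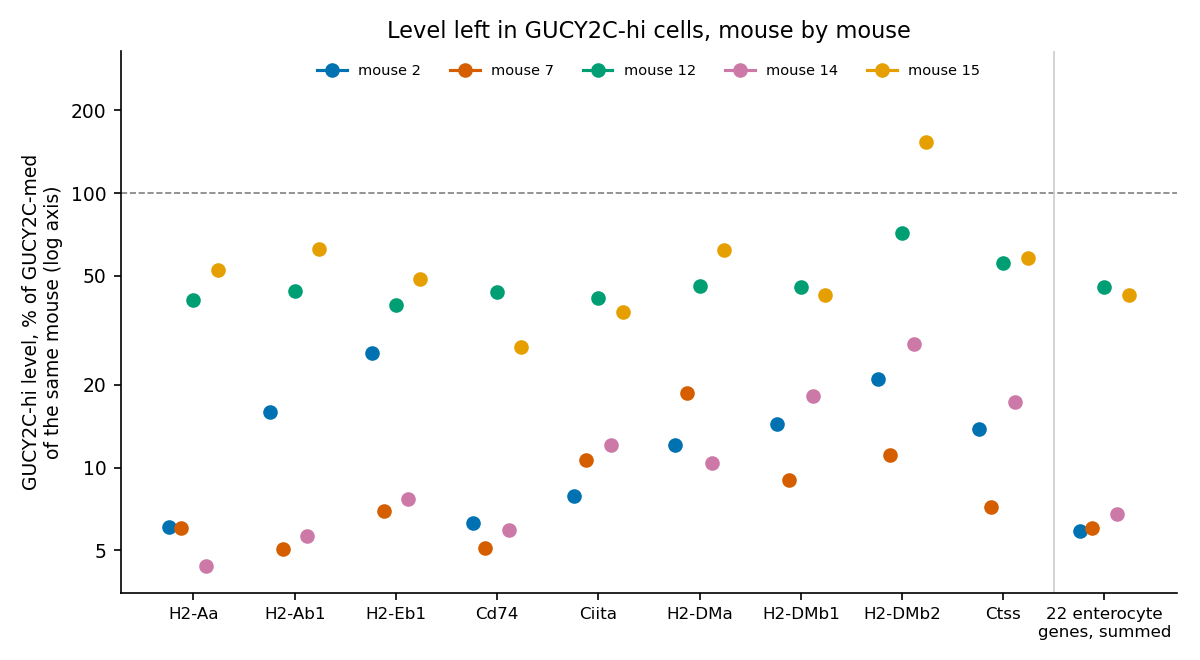
GUCY2C-hi level as a percentage of the GUCY2C-med level of the same mouse (log axis) for each of the 9 genes and for the sum of 22 enterocyte genes, with 1 point per mouse and a dashed line at equal levels. Mice 12 and 15 lie above mice 2, 7 and 14 for every gene and for the enterocyte sum, and only H2-DMb2 in mouse 15 is above the line.

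Some defining markers of dendritic cells, macrophages and B cells were at or near 0 in the GUCY2C-med libraries. Cd14, a receptor gene of monocytes and macrophages, was not. In the GUCY2C-med libraries the dendritic cell integrin gene Itgax reached at most 0.0720 cpm, the macrophage receptor gene Csf1r 0.655 cpm, the dendritic cell receptor gene Flt3 0.432 cpm and the complement gene C1qa 1.40 cpm. Of the B cell genes, Cd79a reached at most 0.257 cpm and Ms4a1 0.655 cpm, and the costimulatory genes Cd80 and Cd86 reached 0.171 and 0.0751 cpm. Other genes of these lists, named after their values had been seen, reached more: Fcer1g 2.48, Itgam 1.95, Lyz2 1.94 and Cd79b 1.69 cpm. In the same libraries Cd74 stood between 593 and 4496 cpm and Ciita between 2.81 and 9.36 cpm. The part of leukocytes in the class II levels was not tested. Cd14, named after its values had been seen, averaged 15.5 ± 8.86 cpm in GUCY2C-hi and 42.1 ± 15.6 cpm in GUCY2C-med cells (SD, n = 5 each), with the GUCY2C-hi library below the GUCY2C-med library in each of the 5 mice, and was not called (log2 fold change -1.44, SE 0.38, adjusted p = 0.0118 in edgeR). Its mean was most of the mean summed GUCY2C-med level of the dendritic cell and macrophage list given next, and its part in the class II levels was not tested.

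The summed levels of the leukocyte lists rested mostly on a few of their genes. For the calls in these and the following cell type lists, the shares over all genes were 8.79% lower and 13.9% higher. In the GUCY2C-med libraries between 3 and 10 of the 22 genes of dendritic cells and macrophages and between 8 and 10 of the 14 B and plasma cell genes had no read. The dendritic cell and macrophage genes summed to 47.8 to 123 cpm in GUCY2C-hi and 35.2 to 64.6 cpm in GUCY2C-med libraries, and of the 11 tested 1 was called, C1qa, which was higher in GUCY2C-hi cells (47.7 ± 37.8 against 0.692 ± 0.500 cpm, SD, n = 5 each; log2 fold change 6.10, SE 0.73, adjusted p = 0.000126 in edgeR). Its partners C1qb and C1qc were not called and averaged 0.594 and 0.672 cpm in GUCY2C-hi cells. The B and plasma cell genes summed to 25.5 to 82.6 cpm in GUCY2C-hi and 116 to 148 cpm in GUCY2C-med libraries, of which Sdc1, a plasma cell gene that epithelial cells also express, reached up to 146 cpm. Sdc1 was called lower (log2 fold change -1.55, SE 0.33, edgeR adjusted p = 0.00368) and Cd22 higher, with 125 reads in GUCY2C-hi and 1 read in GUCY2C-med libraries.

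Genes of lymphocytes were detected in both groups. Cd3e, a T cell receptor subunit gene, averaged 4.16 ± 4.33 cpm in GUCY2C-hi and 3.01 ± 3.30 cpm in GUCY2C-med cells, and Ptprc, which encodes the leukocyte antigen CD45, averaged 1.36 ± 0.676 and 1.31 ± 0.706 cpm (SD, n = 5 each). The granzyme genes Gzma and Gzmb, named after their values had been seen, averaged 72.5 ± 70.3 and 23.4 ± 19.5 cpm in GUCY2C-hi and 46.2 ± 36.4 and 15.7 ± 11.2 cpm in GUCY2C-med cells and were not called. Of the 15 lymphocyte genes tested edgeR called 1 lower and none higher (8.79% and 13.9% over all genes). The microglia genes P2ry12 and Tmem119 reached at most 0.315 and 0.300 cpm, and of the 4 microglia genes tested Olfml3 was called higher (log2 fold change 4.26, SE 0.87, adjusted p = 0.00325 in edgeR, and 0.0278 with the block). Genes of forebrain neurons, some of which enteroendocrine cells also express, summed to 28.7 to 2533 cpm over the 10 libraries, with the neuronal gene Nrgn averaging 314 ± 373 and 297 ± 203 cpm, and none of the 10 was called. Their sums were 391, 1216, 975, 399 and 2533 cpm in GUCY2C-hi and 1002, 28.7, 1317, 998 and 478 cpm in GUCY2C-med cells. The source of these transcripts was not tested. Sdc1, Cd22 and Olfml3 were named after their values had been seen.

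Deposited FPKM values, which are per length of transcript, allow the 9 genes to be compared with each other. In GUCY2C-med cells the order of the mean levels was Cd74 (1490 ± 979 FPKM), H2-Ab1 (200 ± 92.9), H2-Aa (147 ± 89.3), Ctss (115 ± 15.9), H2-Eb1 (106 ± 146), H2-DMa (102 ± 46.0), H2-DMb1 (39.0 ± 20.5), H2-DMb2 (17.1 ± 10.9) and Ciita (1.57 ± 0.873; SD, n = 5 each). Cd74 exceeded H2-Ab1 in 5 of 5 libraries, and from H2-DMa downward each gene exceeded the next in 5 of 5. The neighbours between H2-Ab1 and H2-DMa changed places among the libraries and did not differ beyond their spread. In GUCY2C-hi cells Cd74 was likewise first (272 ± 232 FPKM) and Ciita last (0.336 ± 0.201 FPKM). Cd74 made up 50.4 to 74.2% of the summed FPKM of the 9 genes in GUCY2C-med and 37.3 to 62.8% in GUCY2C-hi libraries.

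The ratio of the E to the A beta chain divided the mice in the same way in both groups. The ratio of H2-Eb1 to H2-Ab1 in FPKM was 1.60 and 1.49 in the GUCY2C-hi libraries of mice 7 and 14 and 1.16 and 1.10 in their GUCY2C-med libraries. In mice 2, 12 and 15 it was 0.102, 0.174 and 0.128 in GUCY2C-hi and 0.0620, 0.196 and 0.164 in GUCY2C-med libraries, so the 2 sets of mice did not overlap in either group. The ratio of H2-Aa to H2-Ab1 lay between 0.890 and 1.07 in the 4 libraries of mice 12 and 15, between 0.402 and 0.667 in those of mice 7 and 14, and was 0.133 and 0.349 in those of mouse 2. Other ratios differed between the libraries of a mouse, such as H2-DMa to H2-DMb1, at 5.28 and 2.55 in the GUCY2C-hi and GUCY2C-med libraries of mouse 7, and Cd74 to H2-Ab1, at 3.07 and 7.80 in those of mouse 2.

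H2-Ea-ps, the name under which the table lists the alpha chain gene of the E molecule, was high in mice 12 and 15 alone. By its level mouse 2 lay near mice 7 and 14, unlike by the H2-Eb1 ratio. It had no read in either library of mouse 7 or of mouse 14, where 3 reads would be 0.181 to 0.281 cpm over the 10 libraries. It was at 49.2 and 65.9 cpm in the GUCY2C-hi and at 111 and 105 cpm in the GUCY2C-med libraries of mice 12 and 15, and at 0.269 and 1.40 cpm in those of mouse 2. H2-Ea-ps was not called (log2 fold change -0.92, SE 1.88, edgeR adjusted p = 0.754). H2-K1, a class I heavy chain gene of the same complex that was looked at after its values had been seen, was at 24.5 and 35.2 cpm in the GUCY2C-hi and 61.3 and 99.9 cpm in the GUCY2C-med libraries of mice 7 and 14. In mice 2, 12 and 15 it was at 637, 929 and 1040 cpm and at 1669, 1319 and 2029 cpm.

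The H2 genes are highly polymorphic, the CD1/ICR stock is outbred, and the reads of all mice were aligned to a single reference genome. The alleles of the mice and how well their reads aligned were not tested. Within a mouse these genes can be compared between GUCY2C-hi and GUCY2C-med cells, whereas a difference between mice in an H2 gene cannot be told apart from a difference in alignment. Cd74, Ciita and Ctss lie outside the H2 complex, and their GUCY2C-hi levels were lower in 5 of 5 mice. They belong to the set chosen on this contrast, so nothing is read from this about alignment.

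**Figure D3:**
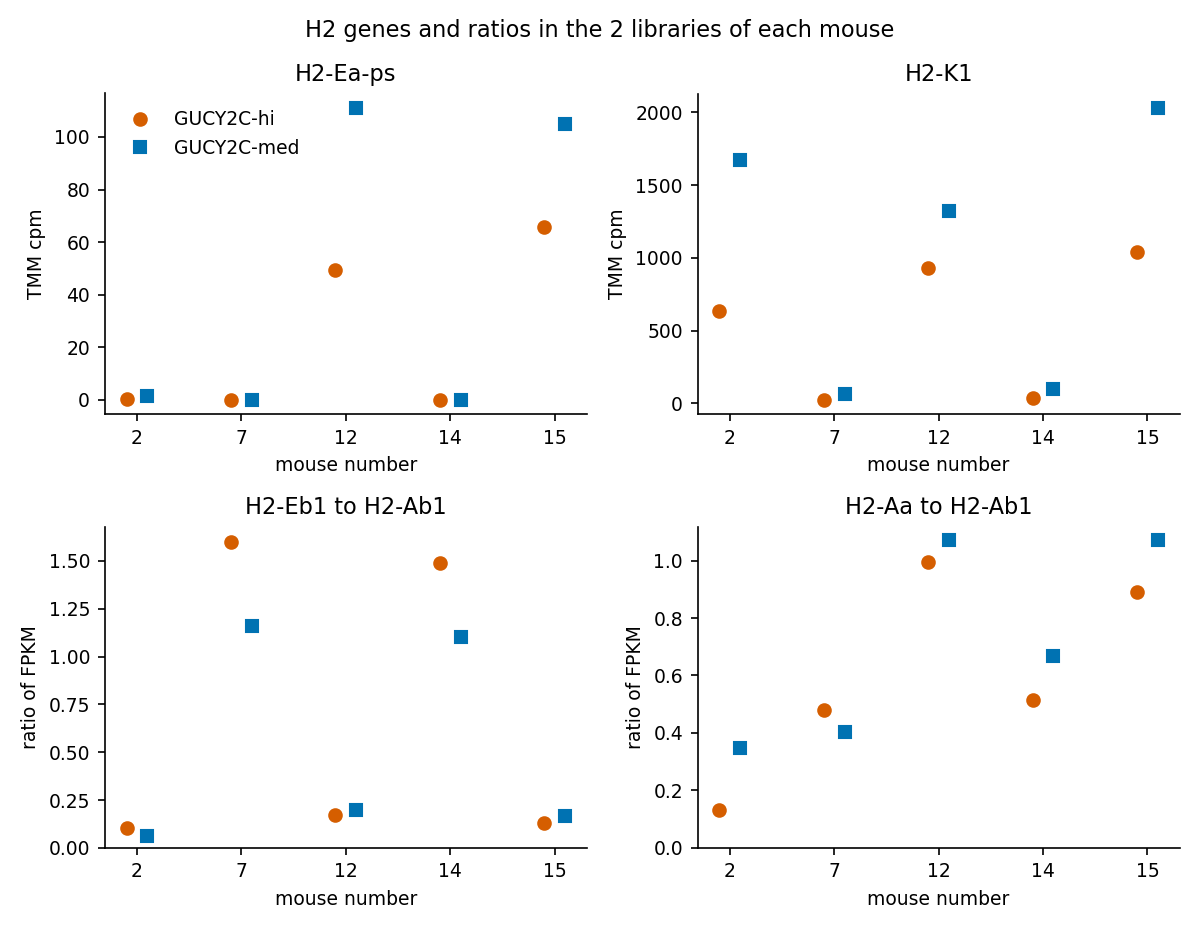
H2-Ea-ps and H2-K1 (TMM cpm) and the ratios of H2-Eb1 and of H2-Aa to H2-Ab1 (ratios of FPKM) in the GUCY2C-hi (circles) and GUCY2C-med (squares) library of each mouse. Both libraries of mice 7 and 14 have the highest H2-Eb1 ratios, no H2-Ea-ps read and the lowest H2-K1 levels.

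The other class II genes were scarcely detected. H2-Oa, which encodes a chain of the modulator H2-DO, was at no more than 10 reads in a library (0.856 cpm) and had no read in mice 7 and 14. H2-Ob, its partner, had 2 reads in each of the GUCY2C-hi libraries of mice 12 and 15 and none elsewhere, and H2-Eb2 had none in any library. None of these 3 passed the filter on low counts.

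The factors that hold CIITA at the promoter had calls in both directions. Of the 11 genes of the promoter complex, all tested, 1 was called higher and 2 lower (13.9% and 8.79% over all genes), with a median log2 fold change of 0.21 against 0.09 over all genes. Nfyb, a subunit of the Y box factor NF-Y, rose from 33.0 ± 8.83 cpm in GUCY2C-med to 62.5 ± 15.8 cpm in GUCY2C-hi cells (log2 fold change 0.92, SE 0.23, adjusted p = 0.00845). Nfyc, another NF-Y subunit, fell from 62.5 ± 8.05 to 39.4 ± 3.59 cpm (log2 fold change -0.66, SE 0.14, adjusted p = 0.00403), and Rfxank, an RFX subunit, fell from 24.7 ± 1.92 to 13 ± 3.72 cpm (log2 fold change -0.93, SE 0.22, adjusted p = 0.00736; SD, n = 5 each, edgeR). None of the 3 calls held with the replicate block (adjusted p = 0.0309, 0.0148 and 0.0155). Rfx5, the subunit that contacts the X box, was at 2.18 ± 0.740 and 1.97 ± 0.466 cpm (log2 fold change 0.14, SE 0.35, adjusted p = 0.797). Without the GUCY2C-med library of mouse 14 no gene of this list was called in either direction.

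Among the other genes of endosomal processing Ctsl and Cst3 rose in GUCY2C-hi cells, and several cathepsin genes had fold changes below 0, as Ctss had. Of 16 genes of lysosomal antigen processing 15 were tested, 2 were called higher, near the share of 13.9% over all genes, and none lower (8.79% over all genes), with a median log2 fold change of -0.07. Ctsl, the cathepsin that does the work of cathepsin S in thymic epithelium, rose from 22.5 ± 7.61 to 272 ± 99.1 cpm (log2 fold change 3.59, SE 0.34, adjusted p = 2.67e-05). Cst3, which encodes the cathepsin inhibitor cystatin C, rose from 208 ± 68.9 to 524 ± 122 cpm (log2 fold change 1.33, SE 0.26, adjusted p = 0.00269; SD, n = 5 each, edgeR). Both were called in all 10 fits that left out 1 library. Ctsc, Ctsb and Ctsz, cathepsin genes named after their values had been seen, had GUCY2C-hi levels that all lay below the GUCY2C-med levels, without overlap, and were not called. Ctsc was at 43.6 ± 33.7 in GUCY2C-hi and 158 ± 23.5 cpm in GUCY2C-med cells (log2 fold change -1.86, SE 0.49, adjusted p = 0.0112 in edgeR), and Ctsb and Ctsz had log2 fold changes of -0.71 (SE 0.24, adjusted p = 0.0354) and -0.66 (SE 0.19, adjusted p = 0.0162).

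Genes of interferon gamma signalling included both receptor genes among those that fell in GUCY2C-hi cells. Of 32 genes 29 were tested, 7 were called lower and 1 higher, where the shares over all genes were 8.79% and 13.9%. A log2 fold change below 0 was found for 24 of the 29, most of them not called, and the median was -1.04. The receptor genes Ifngr1 and Ifngr2 fell from 155 ± 44.2 to 74.6 ± 18.3 cpm (log2 fold change -1.05, SE 0.23, adjusted p = 0.00496) and from 363 ± 49.1 to 140 ± 66.7 cpm (-1.38, SE 0.29, adjusted p = 0.00391; SD, n = 5 each, edgeR). Irf1, an interferon-induced factor that helps to induce Ciita, was at 113 ± 21.6 and 163 ± 36.7 cpm and was not called (log2 fold change -0.53, SE 0.20, edgeR adjusted p = 0.0569). Nlrc5, the activator of class I genes, averaged 0.246 and 0.195 cpm and was not tested.

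Interferon targets that were called lower include Tap1, Tap2 and Psmb9, of the class I peptide pathway, and Irgm2, a GTPase that acts against intracellular microbes. Tap1 fell from 75.2 ± 25.1 to 21.1 ± 5.62 cpm (log2 fold change -1.83, SE 0.27, adjusted p = 0.000486), and Irgm2 from 28.0 ± 5.92 to 8.55 ± 4.13 cpm (-1.71, SE 0.32, adjusted p = 0.00207; SD, n = 5 each, edgeR). Gbp8, a guanylate-binding protein gene, went the other way, from 0.388 ± 0.293 to 7.97 ± 1.45 cpm (log2 fold change 4.33, SE 0.48, adjusted p = 7.46e-05). Tap1, Tap2, Irgm2 and Gbp8 were called in each of the 10 fits without 1 library, Psmb9 in 5 and Ifngr1 and Ifngr2 in 4. Between 3 genes (without the GUCY2C-med library of mouse 15) and 10 genes (without the GUCY2C-hi library of mouse 15) of the list were called lower. Summed over the list, GUCY2C-hi cells held 48.4%, 34.5%, 78.1%, 44.6% and 52.0% of the GUCY2C-med level, highest in mouse 12, with mouse 15 close to mouse 2. The class I genes B2m, H2-D1 and H2-K1, named for their high levels, averaged 4067, 2876 and 1036 cpm in GUCY2C-med cells. In GUCY2C-hi cells they averaged 1548, 1980 and 533 cpm, and none was called. The edgeR log2 fold changes were -1.39 (SE 0.44, adjusted p = 0.0267), -0.54 (SE 0.29, adjusted p = 0.167) and -0.96 (SE 1.11, adjusted p = 0.546). For B2m the groups did not overlap. The list summed to 8440 to 14318 cpm in GUCY2C-med cells.

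The class II region of chromosome 17 allows the class II genes to be set beside their neighbours. Of 12 tested genes between H2-Oa and H2-Ea-ps (chr17:34092340-34344643, GRCm38) 6 are class II genes of the set. Of the other 6, 3 were called lower and none higher (8.79% and 13.9% over all genes). All 3 are already counted in the interferon gamma list. These were Psmb9 (log2 fold change -1.51, SE 0.32, adjusted p = 0.00379), Tap1, and Tap2 (-1.06, SE 0.19, adjusted p = 0.00175). Psmb8, an immunoproteasome gene between Tap1 and Tap2, was at 124 ± 70.2 and 320 ± 39.1 cpm (-1.37, SE 0.36, adjusted p = 0.0118; SD, n = 5 each, edgeR). Brd2, a widely expressed chromatin reader gene within the region, was at 56.7 ± 16.6 in GUCY2C-hi and 45.4 ± 13.3 cpm in GUCY2C-med cells (0.32, SE 0.25, adjusted p = 0.335). Psmb8 and Brd2 are named for their position.

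Costimulatory genes and other T cell ligands were called in both directions, and the main costimulators were near 0. Of 17 genes 13 were tested, 5 were called higher and 4 lower in GUCY2C-hi cells, against 13.9% and 8.79% over all genes, with a median log2 fold change of 0.22. The 4 that fell were Btnl1, Btnl2 and Btnl4, butyrophilin-like genes of the intestinal epithelium, and Lgals9, which encodes galectin-9. Btnl1 fell from 184 ± 63.7 to 41.2 ± 30.8 cpm (log2 fold change -2.16, SE 0.50, adjusted p = 0.00585), Btnl2 from 129 ± 33.4 to 31.0 ± 24.1 cpm (-2.06, SE 0.49, adjusted p = 0.00715), and Lgals9 from 1251 ± 222 to 551 ± 124 cpm (-1.18, SE 0.23, adjusted p = 0.00247, and 0.0166 with the block; SD, n = 5 each, edgeR). Btnl4 had a log2 fold change of -1.34 (SE 0.29, adjusted p = 0.00414). Only Lgals9 of the 4 was called without the GUCY2C-hi library of mouse 2 or 7 or the GUCY2C-med library of mouse 2 or 15.

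The 5 genes that rose were all scarce. Icosl, the ligand of the T cell receptor ICOS, rose from 2.72 ± 0.736 to 11.3 ± 7.73 cpm (log2 fold change 2.05, SE 0.48, adjusted p = 0.00643, and 0.0144 with the block), and Cd274, which encodes the inhibitory ligand PD-L1, from 0.611 ± 0.276 to 2.53 ± 1.0 cpm (2.04, SE 0.43, adjusted p = 0.00392, and 0.0174 with the block). Tnfsf9, the ligand of 4-1BB, rose from 0.819 ± 0.351 to 4.89 ± 1.81 cpm (2.56, SE 0.40, adjusted p = 0.000694; SD, n = 5 each, edgeR). Cd40, the receptor for the T cell ligand CD40L, had 121 reads in the GUCY2C-hi and 3 in the GUCY2C-med libraries, a ratio of 34.0 (95% exact interval 11.4 to 167, counting error only). Tnfsf4, the ligand of OX40, had 83 reads against none, which is at least 4.69-fold higher against a floor of 3 reads per library, and its call was lost with the block (adjusted p = 0.0303). Of these 5 genes, only Cd40 and Tnfsf9 were called without the GUCY2C-hi library of mouse 7 or the GUCY2C-med library of mouse 14.

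**Figure D4:**
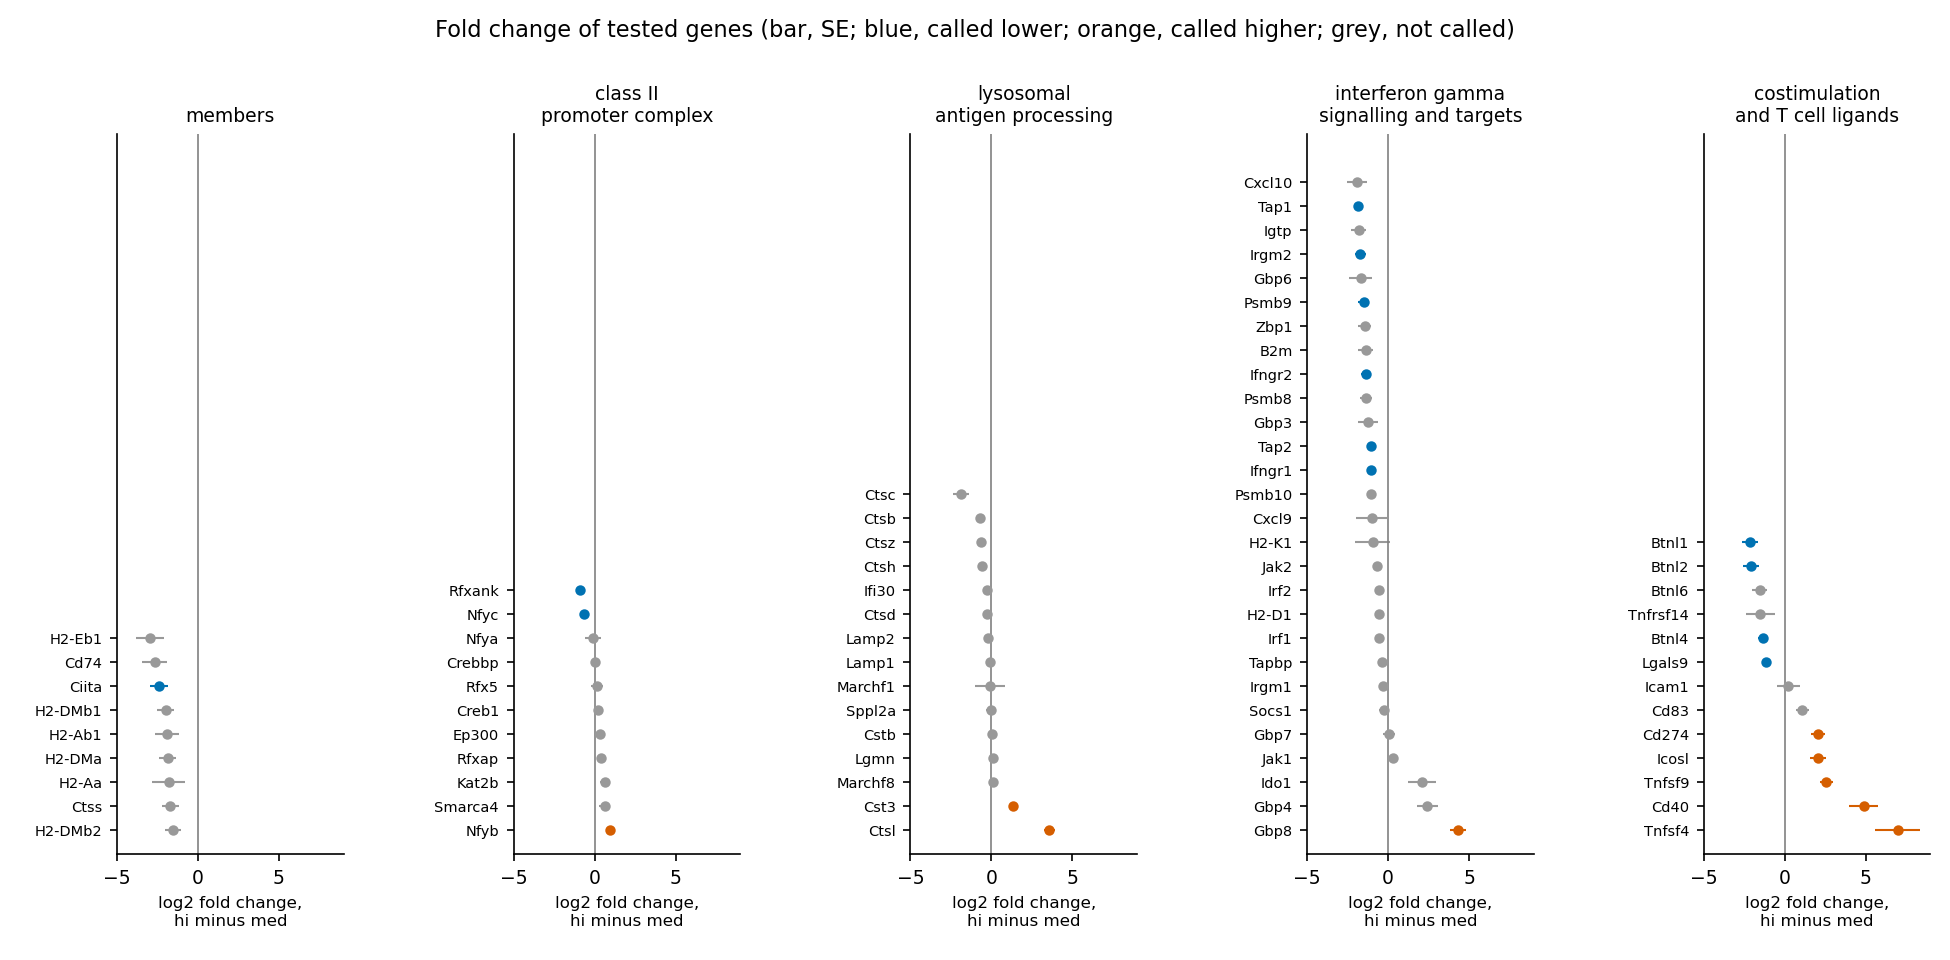
Log2 fold change, GUCY2C-hi minus GUCY2C-med, of the tested genes reported here, of the class II set and of 4 lists of the pathway (points, with the SE as bars); blue and orange mark genes called lower and higher at an adjusted p under 0.01. All 9 class II genes lie left of 0, the promoter complex lies between -0.93 and 0.92, the lysosomal genes Ctsl and Cst3 lie right of 0, and most interferon gamma genes lie left of 0.

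The genes whose levels followed Cd74 most closely across the libraries were looked up over 9969 other genes with a mean of at least 5 cpm. After each group's mean was subtracted, the Pearson correlation of log2 cpm with Cd74 over the 10 libraries was 0.933 for Gstm7 and for Csnk2b, 0.930 for Ggact, 0.926 for Lsm12 and 0.921 for Cda. Within the class II set it was 0.936 for H2-DMb1, 0.928 for H2-Ab1, 0.900 for Ciita, 0.877 for H2-Aa, 0.854 for H2-DMa, 0.701 for Ctss, 0.555 for H2-DMb2 and 0.419 for H2-Eb1. Genes outside the set reached 0.933, so correlations of this size were not particular to the class II genes. The spread over all 9969 genes is not given here. The points share their libraries and therefore their depth, and the 2 libraries of a mouse share the animal.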

How the data were processed

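RNA was sequenced from 5 GUCY2C-hi and 5 GUCY2C-med libraries, which the count table names Hi and Lo. Per the labels, the sequencing provider aligned paired-end reads with STAR to mm9. The counter is not given in the sources used here. The table's gene positions overlapped the same gene of GRCm38.p6 for 99.9% of 37690 genes compared, and of NCBIM37 for 9.72% of 28540, so positions are given as GRCm38. The deposited counts are raw whole numbers of reads per gene. The deposited FPKM values were made by the authors' provider from these counts and a length per gene, and were used to compare genes with each other and as an alternative. The deposited comparison (log2 fold changes and p-values, made with limma 3.40.6 and edgeR 3.26.8 according to the submitters' processing notes) and its normalised values were not used. The libraries held 10903958 to 15307932 reads on genes, and floors and intervals cover counting error only.

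The groups were compared with edgeR 4.0.16 (TMM factors, quasi-likelihood test, no term for the mouse), with limma 3.58.1 and DESeq2 1.42.0 as alternatives, under R 4.3.3. Tables were made with pandas 2.3.3 and numpy 2.4.6, exact intervals with scipy 1.17.1, and figures with matplotlib 3.10.9, under Python 3.11.15. Genes above 0.5 cpm in at least 3 libraries were tested, with Benjamini-Hochberg adjustment over all 15703 and a threshold of 0.01. The biological coefficient of variation was 0.458. The SE is the fold change divided by the square root of the F statistic. On simulated data for this comparison (15703 genes, 200 changed) edgeR recovered 82% of genes changed by 2 on the log2 scale and 88% of those changed by 3. The changed genes had a mean above 5 cpm and each library was drawn independently, so these rates do not cover scarce genes such as Ciita. On these data edgeR made 2 false calls and DESeq2 26. The label numbers pair the libraries, since each mouse gave a library to both groups. Deviations from the group means correlated between the 2 libraries of a mouse at -0.11, -0.223, 0.272, -0.124 and 0.0607. The highest correlation of each GUCY2C-hi library with the GUCY2C-med library of another mouse was 0.542, 0.287, 0.0896, 0.432 and 0.397. It exceeded the same-mouse value in every mouse but 12, so the pairing rests on the labels. The H2-K1 level and the H2-Eb1 to H2-Ab1 ratio set the same mice apart in both groups.

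The 9 genes and all gene lists were chosen with earlier results of these data known. Named genes are the 9, up to 10 called genes with the largest fold changes of each pathway list, stated factors and markers, and the 5 genes most like Cd74 (log2 cpm with a prior count of 2). A few list genes are counted but not reported here by name. Alternatives were limma-voom, DESeq2, a replicate block, other scaling factors, no filter, a threshold of 0.05, leaving out libraries and log2(FPKM + 1).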

Additional observations from a re-analysis of the deposited data

Results flagged for a closer look

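Of 78 groups of 5 libraries (39 genes in each group of cells), 7 held a library whose distance from the nearest of the others, as a share of the group's whole range, was above Dixon's 95% critical value of 0.71. Chance flags about 1 in 20 such groups. Both of those among the class II genes were the GUCY2C-med library of mouse 14, in which H2-Eb1 was at 480 cpm (nearest 105 cpm, ratio 0.809) and H2-DMb1 at 87.0 cpm (nearest 41.8 cpm, ratio 0.751). Without the GUCY2C-med libraries in turn, no class II gene changed direction. Rfxank stood apart in the GUCY2C-med library of mouse 15 (28.2 cpm, nearest 24.1 cpm). The GUCY2C-med library of mouse 12 was the lowest for Nfyc (48.3 cpm, nearest 64.7 cpm) and for Irgm2 (17.7 cpm, nearest 28.8 cpm). In the remaining pair a few reads made the difference: Cd40 was at 0.225 cpm in the GUCY2C-med library of mouse 14 and Cd22 at 0.0803 cpm in that of mouse 7, and both were at 0 in the other GUCY2C-med libraries.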

How the results depend on the processing

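None of the 9 class II genes and none of the list genes named as called changed direction under any alternative run, nor did Rfx5, Irf1 and H2-Ea-ps. The alternatives were not run gene by gene for the other genes named. Of 171 fold changes of the class II genes under the alternatives 166 moved by no more than the spread between replicates and 5 by more: H2-Aa, H2-Ab1, H2-DMa and Ctss without the GUCY2C-hi libraries of mice 12 and 15 (-4.85, -3.47, -2.91 and -3.03), and Ciita on the log2(FPKM + 1) scale (-0.89), which understates changes of scarce genes. The number of calls moved more. Class II genes called lower, 1 in the report, numbered 4 with limma-voom, 7 with DESeq2, 3 with the mouse as replicate block in edgeR, 7 with the replicate block in limma-voom, 3 without the filter, 7 at a threshold of 0.05, 7 without the GUCY2C-hi libraries of mice 12 and 15, and 0 to 3 when 1 library was left out. Over all genes, the replicate block in edgeR called 1294 higher and 779 lower, the threshold of 0.05 called 3367 and 2767, DESeq2 called 2235 lower, library size without TMM 557 lower, and the fit without the GUCY2C-hi libraries of mice 12 and 15 called 2186 lower. Leaving out 1 library gave 1636 to 2534 higher and 512 to 1609 lower. Calls lower over all genes numbered 1797 with limma-voom, 1382 with its replicate block and 1132 without the filter. Library size without TMM raised the median log2 fold change of all genes from 0.09 to 0.39, and the split between higher and lower calls was then 2910 against 557, where TMM gave 2186 against 1381.

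Of the promoter complex, 0 genes were called higher and 0 lower with either replicate block, 0 lower without TMM or without the filter, 2 higher without the GUCY2C-hi libraries of mice 12 and 15, and 0 to 1 higher and 0 to 2 lower without 1 library. Of the lysosomal genes, 1 was called lower with limma-voom, with its replicate block and without the filter, 2 with DESeq2 and without the GUCY2C-hi libraries of mice 12 and 15, 4 at 0.05, and 0 to 1 without 1 library. Of the interferon gamma genes, 2 were called higher with DESeq2, without TMM, without those libraries and at 0.05, and 1 to 2 without 1 library; 11 were called lower with limma-voom, with its replicate block and without those libraries, 13 with DESeq2, 4 without TMM, 15 at 0.05, and 3 to 10 without 1 library. Of the costimulatory genes, 3 were called higher with the replicate block in edgeR and 2 to 5 without 1 library, and 1 was called lower without TMM and 1 to 4 without 1 library. The cause of these shifts was not tested. Ciita rests on 5 to 119 reads per library. P-values rest on 5 mice and a wide spread between them.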
